A study of Mus musculus with 12 samples.

Results

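The 6 Reg genes described here, Reg1, Reg2, Reg3a, Reg3b, Reg3g and Reg3d, were taken by name from a table of 46095 genes, and all 6 were among the 13743 genes with enough counts to test. The 12 RNA sequencing libraries came from pancreas at postnatal day 56, 6 of Axl-/-Mertk-/- mice (AMKO 1 to 6) and 6 of wild type C57BL/6J mice (WT 1 to 6). Every mouse, of either genotype, had been given 10 hourly injections of caerulein at 100 µg/kg into the peritoneal cavity and was killed 12 h after the first one, so all libraries come from inflamed pancreas and no untreated pancreas was analysed here. Caerulein resembles the hormone cholecystokinin and, at high dose, drives acinar cells into acute pancreatitis. The deleted genes encode receptor tyrosine kinases that recognise dying cells, and the labels name no cell type to which their deletion is limited. The sources used here give no strain for the AMKO mice, so strain and receptor loss cannot be told apart.

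Reg genes encode small secreted proteins with a C-type lectin fold. In the pancreas they are made mainly by acinar cells and are known as secretory stress proteins, whose messenger RNA climbs steeply in acute pancreatitis. Cytokines of the IL-6 and IL-22 families, acting through STAT3, are known inducers of the Reg3 genes, which in the gut encode antibacterial lectins.

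The 6 genes lie side by side on chromosome 6 of the mouse assembly GRCm38.p6, within 97.99 kb, with no other annotated gene between them. In order along the chromosome, RefSeq places Reg3b at chr6:78370885-78373466, Reg3d at chr6:78375874-78378865, Reg3a at chr6:78380709-78383839, Reg2 at chr6:78405155-78408099, Reg1 at chr6:78425983-78428668 and Reg3g at chr6:78466269-78468874. Reg3d and Reg3g are on the minus strand and the other 4 on the plus strand. No annotated gene overlaps any of them. Their transcripts are related but not interchangeable for counting, since the closest pair, Reg1 and Reg2, matched at 79.7% of 556 aligned bases and Reg3b and Reg3g at 77.0% of 548.

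Promoter windows of 300 bases, from 250 before to 50 after the start of transcription, are shown for Reg3g, Reg3b and Reg3d, because the results below separate Reg3b and Reg3g from Reg3d. They are RefSeq sequence of build GRCm38.p6, written along the gene's own strand, from chr6:78468825-78469124 (minus strand) for Reg3g, chr6:78370635-78370934 (plus strand) for Reg3b and chr6:78378816-78379115 (minus strand) for Reg3d. Capitals mark the letters TATAAA, the TATA box, and TTCNNNGAA, the motif bound by STAT proteins, searched on both strands.
Reg3g promoter: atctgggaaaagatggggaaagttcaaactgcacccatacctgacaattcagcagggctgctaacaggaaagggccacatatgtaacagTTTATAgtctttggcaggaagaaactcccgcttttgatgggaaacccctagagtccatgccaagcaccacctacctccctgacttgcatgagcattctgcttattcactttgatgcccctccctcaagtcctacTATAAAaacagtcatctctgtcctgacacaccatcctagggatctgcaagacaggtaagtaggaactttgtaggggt
Reg3b promoter: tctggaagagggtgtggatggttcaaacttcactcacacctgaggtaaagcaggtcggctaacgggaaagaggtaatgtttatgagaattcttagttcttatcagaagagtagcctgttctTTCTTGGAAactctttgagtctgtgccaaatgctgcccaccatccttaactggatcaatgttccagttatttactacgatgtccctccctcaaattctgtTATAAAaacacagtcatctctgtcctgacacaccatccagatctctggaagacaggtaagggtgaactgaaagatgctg
Reg3d promoter: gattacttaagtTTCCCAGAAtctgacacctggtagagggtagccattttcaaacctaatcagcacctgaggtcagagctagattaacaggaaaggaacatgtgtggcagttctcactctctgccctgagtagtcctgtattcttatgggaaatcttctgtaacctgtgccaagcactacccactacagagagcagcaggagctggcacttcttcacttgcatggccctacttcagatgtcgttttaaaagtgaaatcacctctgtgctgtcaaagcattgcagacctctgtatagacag
Windows of Reg3b and Reg3g shared an unbroken run of 29 identical bases, acagtcatctctgtcctgacacaccatcc, that began 20 bases before the start of transcription in both genes. The longest run shared by any other pair of the 6 windows was 14 bases, between Reg3a and Reg3g. TATAAA stood on the gene's own strand 29 bases before the start in Reg3b and 27 in Reg3g, where it also matched the other strand 161 bases before the start. It was also present in Reg1 and Reg2, 4 of 6 windows in all, against 13.6% of 32851 mouse promoter windows of the same length. TTCNNNGAA was present in Reg3b, 129 bases before the start, and in Reg3d, 238 bases before it, against 8.30% of the same windows. The window of Reg3a, not shown, held neither motif, and the log2 fold change of Reg3a (-2.00) was close to that of Reg3g (-2.05). These 2 motifs do not overlap each other in the windows shown, and the matches are descriptions of letters and not of binding.

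The libraries held 10668637 to 15184371 counts and 18548 to 20596 genes with a count. Levels are given as CPM, counts scaled to a common depth with TMM-scaled library sizes. Axl was between 5.60 and 11.5 CPM in AMKO libraries (median 9.44) and between 44.4 and 77.1 CPM in WT libraries (median 59.8), so its groups did not overlap. Mertk was between 4.37 and 10.5 CPM in AMKO libraries (median 5.79) and between 2.69 and 10.5 CPM in WT libraries (median 7.13). Gene counts add reads over a whole gene, and the labels do not place the Mertk deletion within it, so the Mertk level does not check the label.

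Differences between the genotypes ran the same way for the 6 Reg genes and differed in size. All 6 had a lower mean level in AMKO than in WT pancreas. Reg3g, Reg3b and Reg3a had the largest differences, at 4.15-fold, 4.76-fold and 4.01-fold lower, Reg2 stood between, and Reg3d and Reg1 differed least. Reg3g was the only member that passed the test across all genes, edgeR's quasi-likelihood test at an adjusted p under 0.05, so 1 of 6 members was called, lower in AMKO, against 3.37% of all tested genes called lower and 5.78% called in either direction. At a fitted log2 fold change of -1 or below stood 4 of the 6 members and 1.31% of tested genes. Their median log2 fold change was -1.59, beside -0.002 over all genes tested. Below 0 stood 6 of 6 members and 50.3% of all genes tested. The groups overlapped for all 6 members, and 3.54% of tested genes had groups that did not overlap.

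**Figure D1:**
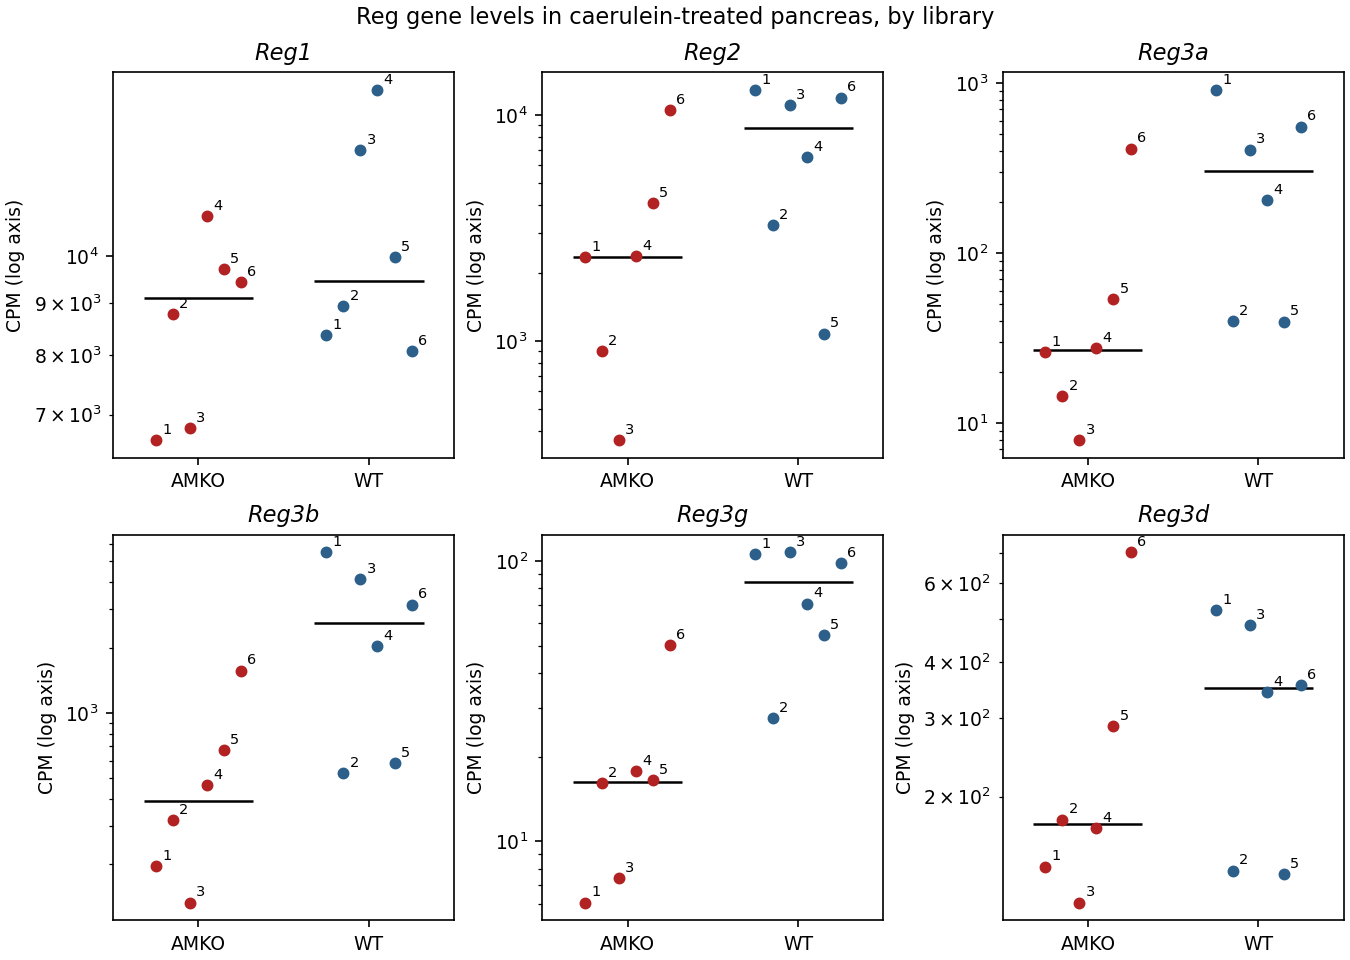
Level of each Reg gene (CPM, log axis) in every library, AMKO on the left and WT on the right of each panel, with the replicate number beside each point and a bar at the group median. AMKO 6 sits highest of the AMKO libraries in every panel but that of Reg1, and WT 2 and WT 5 sit lowest of the WT libraries in the panels of Reg2, Reg3a, Reg3b, Reg3g and Reg3d.

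Reg3g, the gut lectin that kills Gram-positive bacteria, had the lowest median level of the members per kilobase of transcript. It had 6.05 CPM in the lowest, 16.3 in the median and 50.1 in the highest AMKO library, against 27.6 in the lowest, 84.4 in the median and 108 in the highest WT library. AMKO 6 was the only AMKO library above the lowest WT library, WT 2, and 5 of 6 WT libraries lay above every AMKO library. Means were 19.0 ± 16.0 CPM in AMKO and 77.5 ± 32.4 CPM in WT (SD, n = 6 each), and the log2 fold change was -2.05 with a standard error (SE) of 0.46 and an edgeR adjusted p of 0.0192. Leaving out AMKO 2 took the call away (adjusted p = 0.0521), as did setting AMKO against WT 4 to 6 alone (adjusted p = 0.0897) or WT 1 to 3 alone (adjusted p = 0.109), and over all single libraries left out the log2 fold change stayed between -2.61 and -1.85.

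Reg3b, the acute phase member also known as pancreatitis-associated protein, had the highest median level of the Reg3 genes per kilobase of transcript. Its lowest, median and highest levels were 133, 392 and 1565 CPM in AMKO libraries and 526, 2594 and 5520 CPM in WT libraries. The 4 lowest AMKO libraries were below every WT library, and WT 1, WT 3, WT 4 and WT 6 were above every AMKO library. Only AMKO 5, AMKO 6, WT 2 and WT 5 shared a range. Mean levels were 559 ± 530 CPM in AMKO and 2659 ± 1991 CPM in WT (SD, n = 6 each). The log2 fold change of -2.25 (SE 0.66) was the 8th most negative of the 13743 genes tested, and its adjusted p in edgeR was 0.0615, short of the threshold. The same gene was called by DESeq2 (-2.24, adjusted p = 0.0247), by limma voom with quality weights (-2.19, adjusted p = 0.0358) and without AMKO 6 (-2.89, adjusted p = 0.0241), WT 5 (-2.46, adjusted p = 0.0445) or WT 2 (-2.45, adjusted p = 0.0491). Leaving out any other single library gave no call in edgeR, with the highest adjusted p, 0.134, without AMKO 2. Nor was Reg3b called in edgeR against WT 4 to 6 alone (adjusted p = 0.237) or WT 1 to 3 alone (adjusted p = 0.125).

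Reg3a, a Reg3 paralogue next to Reg3b and Reg3d, varied most of all, with a 115-fold range over the 12 libraries. Its lowest, median and highest levels were 7.91, 26.9 and 412 CPM in AMKO libraries and 39.5, 305 and 913 CPM in WT libraries. Its AMKO median was below the lowest WT library, but AMKO 6 alone reached the level of WT 3. The log2 fold change was -2.00 (SE 0.98, adjusted p = 0.248 in edgeR), with a 95% interval of -4.10 to 0.09. Without AMKO 6 it was -3.79 (SE 0.83, adjusted p = 0.0234), so that library decided the call.

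Reg2, a close relative of Reg1, exceeded it per kilobase of transcript in AMKO 6, WT 1 and WT 6. Its lowest, median and highest levels were 364, 2362 and 10531 CPM in AMKO libraries and 1080 (WT 5), 8745 and 12912 CPM in WT libraries. AMKO 6 lay among the high WT libraries and WT 5 among the low AMKO libraries, so the groups overlapped widely. The log2 fold change was -1.18 (SE 0.70, adjusted p = 0.345 in edgeR) with a 95% interval of -2.68 to 0.32, and without AMKO 6 it was -1.95, still short of the threshold. Over all single libraries left out it ran from -1.95 to -0.94.

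Reg3d, the member related to the islet neogenesis-associated protein of the hamster, had a lowest, median and highest level of 116, 174 and 705 CPM in AMKO libraries and 134, 349 and 523 CPM in WT libraries. Its highest value of all was in AMKO 6, and WT 2 and WT 5 lay among the lowest 3 libraries. The log2 fold change was -0.31 (SE 0.46, adjusted p = 0.735 in edgeR), with a 95% interval of -1.29 to 0.67. It was -0.89 without AMKO 6 and did not pass the threshold there. Over all single libraries left out it ran from -0.89 to -0.13.

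Reg1, also called lithostathine or pancreatic stone protein, was the steadiest member, with a 2.20-fold range over all libraries. The lowest, median and highest levels were 6604, 9103 and 10933 CPM in AMKO libraries and 8080 (WT 6), 9455 and 14540 CPM in WT libraries. Reg1 levels were highest in WT 4 and WT 3 and lowest in AMKO 1 and AMKO 3, with wide overlap between. The log2 fold change was -0.26 (SE 0.17, adjusted p = 0.399 in edgeR), with a 95% interval of -0.63 to 0.11.

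**Figure D2:**
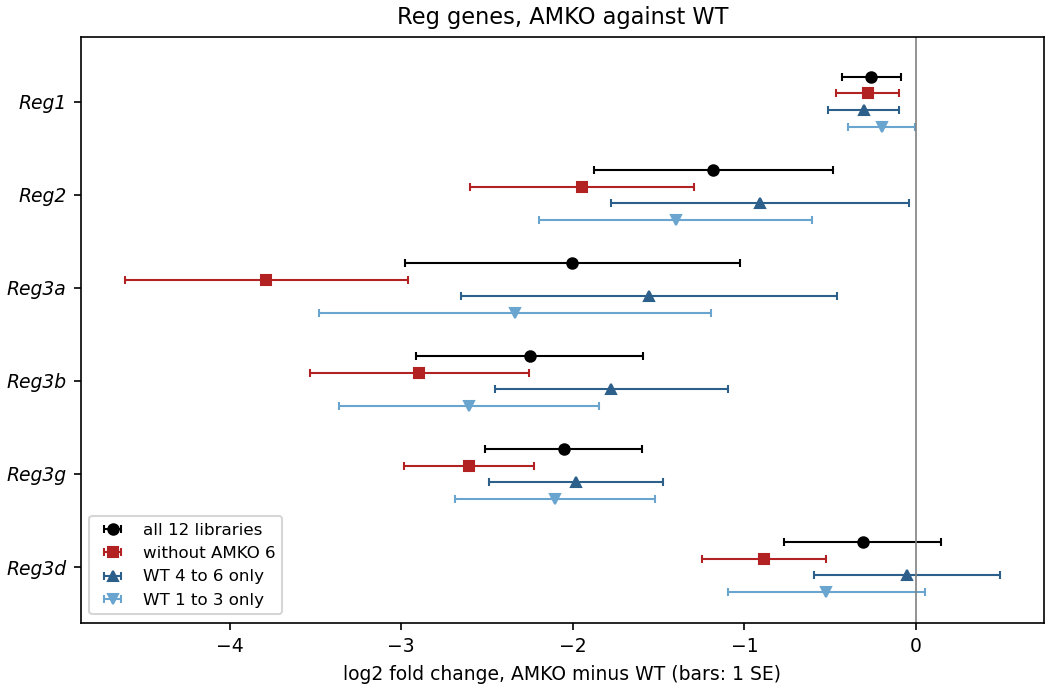
Log2 fold change of AMKO minus WT for each Reg gene, with bars of 1 SE, from the fit over all 12 libraries, without AMKO 6, and with only WT 4 to 6 or only WT 1 to 3 as wild type. Every point lies below 0, and Reg3a moves the most, from -2.00 to -3.79, when AMKO 6 is left out.

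Per kilobase of transcript, the order of levels was the same for neighbours in most libraries. Medians over the 12 libraries were 11943 CPM per kb for Reg1, 5251 for Reg2, 805 for Reg3b, 297 for Reg3d, 56.4 for Reg3a and 50.4 for Reg3g. Reg2 exceeded Reg3b, and Reg3b exceeded Reg3d, in 12 of 12 libraries. Reg1 exceeded Reg2 in 9 of 12, Reg3d exceeded Reg3a in 10 of 12 and Reg3a exceeded Reg3g in 9 of 12, so these 3 neighbouring pairs changed places within the spread of the libraries. Among all genes in the table, Reg1 ranked 17th by mean CPM in AMKO and 14th in WT, Reg2 30th and 19th, and Reg3b 106th and 35th.

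Together the 6 genes took 0.711% to 1.95% of all counts in AMKO libraries (1.26 ± 0.435%, SD, n = 6) and 1.19% to 3.03% in WT libraries (2.18 ± 0.722%, SD, n = 6). The lowest WT share was in WT 5, and 3 AMKO libraries, AMKO 4, AMKO 5 and AMKO 6, lay above it. Reg1 made up 41.6% to 91.5% of the Reg counts in AMKO libraries and 29.5% to 84.0% in WT libraries. Reg3b made up 1.79% to 6.89% of the Reg counts in AMKO and 4.08% to 19.5% in WT. In bulk tissue such as this, fewer cells of a type and less RNA per cell cannot be told apart.

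Across libraries, Reg2, Reg3a, Reg3b, Reg3g and Reg3d moved together, and over all 12 libraries Reg1 moved with none of them past the threshold. Pearson's r of log2 CPM over the 12 libraries ranged from 0.719 to 0.965 for the 10 pairs among those 5 genes (Spearman's rho 0.636 to 0.972), and all 10 passed after adjustment over the 15 pairs of the 6 genes (permutation test, adjusted p 7.5e-05 to 0.0159). The tightest was Reg3a with Reg3b at an r of 0.965 (rho 0.951, adjusted permutation p = 1e-04), followed by Reg2 with Reg3a at 0.940 and Reg3b with Reg3g at 0.940. For the 5 pairs with Reg1, r was 0.352 to 0.558 and the lowest adjusted permutation p was 0.0811. Without WT 1, Reg1 passed with Reg3b (r = 0.660) and with Reg3g (r = 0.667), each at an adjusted permutation p of 0.0334. Without WT 6 it passed with Reg3g (r = 0.680, adjusted permutation p = 0.0280). With each gene centred on its genotype's mean, r among the 5 genes was 0.703 to 0.966, and 10 of 10 pairs again passed. Reg3g with Reg3d stood at an r of 0.893 when centred, against 0.719 before. The share of pairs that pass among all genes was not counted, so these counts have no background beside them. Genes outside the family reached an r of up to 0.944 with a member.

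Within the AMKO libraries alone r among the 5 genes was 0.706 to 0.960 and 8 of 10 pairs passed an exact permutation test. Within the WT libraries alone it was 0.703 to 0.990 and 9 of 10 passed. By Spearman's rho, with 6 libraries, 1 of 10 pairs passed in each genotype. Without the 2 libraries farthest from the median of the gene named first, r over the remaining 10 libraries was 0.601 to 0.944, and 8 of the 10 pairs stayed past the threshold after adjustment. The 2 lost were Reg3g with Reg3d without AMKO 1 and AMKO 3 (r = 0.601, unadjusted permutation p = 0.0696) and Reg2 with Reg3g without AMKO 2 and AMKO 3 (r = 0.633, unadjusted permutation p = 0.0498), so these pairs rested on those libraries when the genotypes were pooled. In AMKO libraries alone, leaving out AMKO 3 and AMKO 6 took Reg2 with Reg3g to an r of -0.08 over the other 4 libraries and Reg3b with Reg3d to 0.883. For the 5 pairs with Reg1, r was 0.454 to 0.748 in AMKO libraries alone and -0.079 to 0.172 in WT libraries alone. Of these pairs 0 of 5 passed in either genotype.

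**Figure D3:**
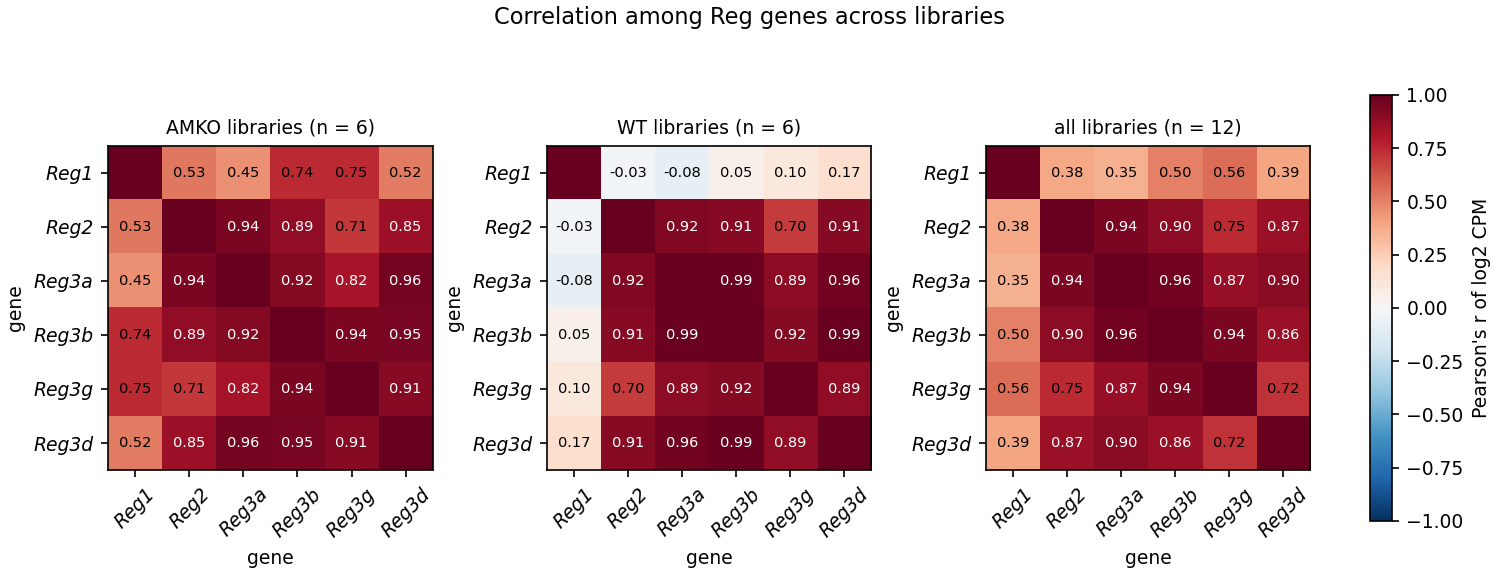
Pearson's r of log2 CPM between Reg genes across the AMKO libraries, the WT libraries and all 12 libraries, printed in each square. The 10 pairs among Reg2, Reg3a, Reg3b, Reg3g and Reg3d are at 0.703 or above in each panel. The squares of Reg1 run from 0.454 to 0.748 in AMKO libraries and from -0.08 to 0.17 in WT libraries. Over all 12 libraries they run from 0.352 to 0.558.

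Within a library, the balance between members differed by genotype. Log2 ratios of the counts of 2 genes in the same library need no scaling between libraries, and 15 such ratios were compared by two-sided exact permutation tests over all regroupings of the 12 libraries, with p-values adjusted over the 15. In 4 ratios the adjusted p was under 0.05, and 3 of those set Reg3b, Reg3g or Reg3a against Reg3d. Reg3b over Reg3d was 0.90 ± 0.48 in AMKO libraries, from 0.20 to 1.45, and 2.72 ± 0.59 in WT libraries, from 1.95 to 3.40 (log2 ratio, SD, n = 6 each). The groups did not overlap, and the difference of -1.82 had an adjusted exact permutation p of 0.0162, from an unadjusted p of 0.00217, the smallest these regroupings allow. So in AMKO pancreas there was less Reg3b for a given amount of Reg3d in every library, AMKO 6 included.

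Reg3g over Reg3d gave the same picture, at -3.85 ± 0.46 in AMKO libraries, from -4.52 to -3.25, and -2.03 ± 0.40 in WT libraries, from -2.31 to -1.30 (log2 ratio, SD, n = 6 each). The difference was -1.82 with an adjusted exact permutation p of 0.0162, again without overlap. Reg3a over Reg3d averaged -2.62 ± 1.10 in AMKO and -0.52 ± 1.13 in WT, a difference of -2.10 with overlapping groups (adjusted exact permutation p = 0.0487). Reg1 over Reg3g averaged 9.17 ± 0.88 in AMKO and 7.18 ± 0.81 in WT, a difference of 1.99 (adjusted exact permutation p = 0.0325). These last 2 ratios lost their calls without any of AMKO 1 to 5, WT 1 or WT 6, and Reg3a over Reg3d also without WT 3 or WT 4, whereas Reg3b and Reg3g over Reg3d stayed past the threshold without each library in turn. With 3 WT libraries the 84 groupings allow no p under 0.0119 and no ratio was called, while the differences for Reg3b over Reg3d were -1.72 with WT 4 to 6 and -1.92 with WT 1 to 3, without overlap.

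The other 11 of the 15 ratios were not called. Among the ratios between Reg3a, Reg3b and Reg3g, Reg3b over Reg3g averaged 4.75 ± 0.45 in AMKO libraries and 4.75 ± 0.80 in WT libraries (log2 ratio, SD, n = 6 each). The means differed by less than the spread between libraries (exact permutation p = 1). Reg3a over Reg3b differed by -0.28 (exact permutation p = 0.537) and Reg3a over Reg3g by -0.28 (exact permutation p = 0.710), also within the spread.

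**Figure D4:**
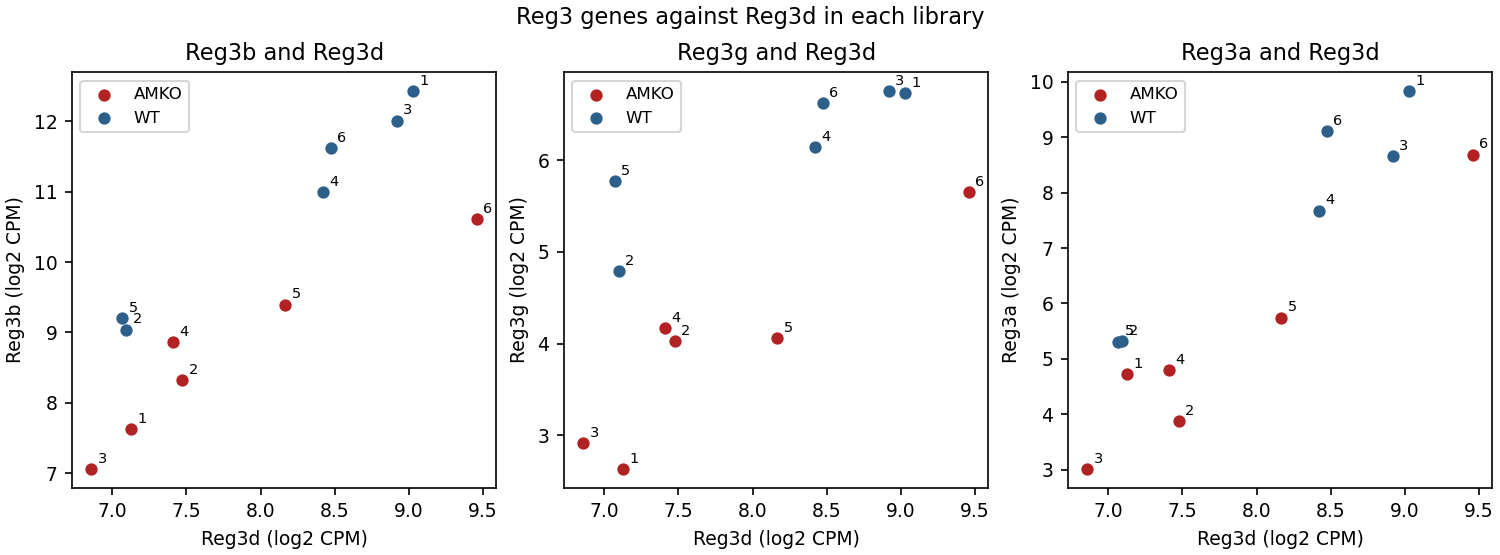
Log2 CPM of Reg3b, Reg3g and Reg3a (vertical axes) against log2 CPM of Reg3d (horizontal axis) in each library, AMKO in red and WT in blue, with replicate numbers. In the panels of Reg3b and Reg3g the AMKO points run below the WT points at a given Reg3d level, including AMKO 6, which has the highest Reg3d of all.

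**Figure D5:**
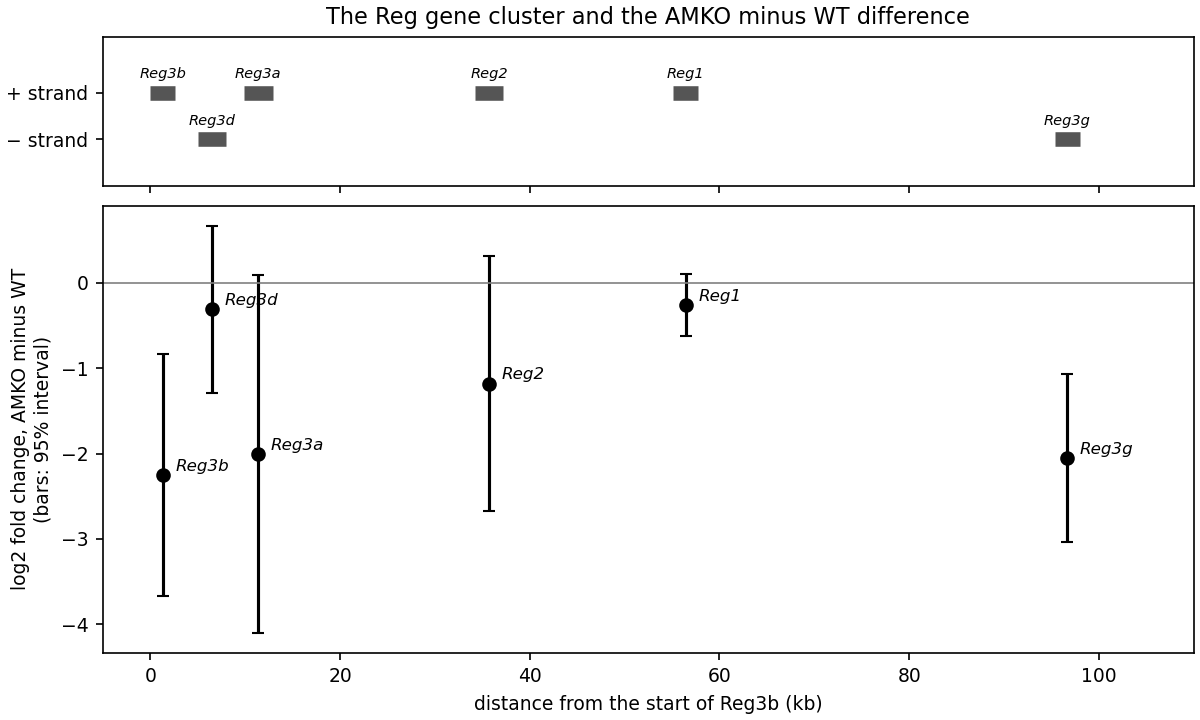
Upper panel, the 6 Reg genes on their strands by distance from the start of Reg3b (kb). Lower panel, log2 fold change of AMKO minus WT with its 95% interval at the middle of each gene. Reg3d lies between Reg3b and Reg3a and differs least of these 3 neighbours, and Reg3g, at the far end, has a difference close to that of Reg3b.

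Position in the cluster did not order the differences. Reg3d, at -0.31, lies between Reg3b at -2.25 and Reg3a at -2.00, and Reg3g at -2.05 is the member farthest from them. The map of the cluster shows these estimates with their intervals. The within-library ratios above are the direct test between members.

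Gene lists around the family are read against the 5.78% of all tested genes that were called. Of the ligands of the IL-6 and IL-22 families, 4 of 8 could be tested and 0 were called by edgeR, DESeq2 or limma voom, with 2 at an unadjusted p under 0.05. Fitted below 0 were 3 of the 4, and the list's median log2 fold change was -0.70. Il6 was 0.952 ± 0.487 CPM in AMKO and 2.24 ± 1.59 CPM in WT (SD, n = 6 each; log2 fold change -1.20, SE 0.50, adjusted p = 0.174 in edgeR), and Il22 had 0 counts in every library. A 0 in this table need not mean absence, since the pancreatic trypsinogen genes Prss2, Try4 and Try10, the macrophage gene Aif1 and the endothelial gene Cldn5 were also at 0 in all 12. Lif, another ligand of the family, was 55.8 ± 19.7 CPM in AMKO and 42.9 ± 13.2 CPM in WT. Among the receptors, 0 of 8 tested were called by edgeR, 1 by DESeq2 and 1 by limma voom, with 1 at an unadjusted p under 0.05. Il22ra1, the IL-22 receptor subunit of epithelial cells, was 96.0 ± 17.1 CPM in AMKO and 106 ± 17.5 CPM in WT (adjusted p = 0.550 in edgeR). Il6st, the shared subunit gp130, was 173 ± 23.9 CPM in AMKO and 198 ± 21.5 CPM in WT (adjusted p = 0.264 in edgeR).

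Of 18 genes of JAK-STAT3 signalling and its feedback, 1 was called, and it was lower in AMKO. That gene was Cish, a feedback inhibitor induced by STAT5, at 32.3 ± 7.94 CPM in AMKO and 57.9 ± 18.8 CPM in WT (log2 fold change -0.84, SE 0.22, adjusted p = 0.0348 in edgeR). For Stat3 itself the log2 fold change was -0.02 (SE 0.07, adjusted p = 0.904 in edgeR), and for Socs3, a feedback inhibitor and target of STAT3, it was -0.18 (SE 0.13, adjusted p = 0.430 in edgeR). The list's median was -0.06, beside -0.002 over all genes tested. Extl3, a proposed receptor of Reg proteins, was 82.2 ± 4.88 CPM in AMKO and 88.3 ± 6.59 CPM in WT (adjusted p = 0.381 in edgeR). Reg4, a more distant family member, had 0 to 14 counts per library and was not tested.

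In the acute phase list 1 of 17 tested genes was called, Cp, which encodes ceruloplasmin, lower at 234 ± 22.6 CPM in AMKO and 327 ± 26.4 CPM in WT (log2 fold change -0.48, SE 0.08, adjusted p = 0.00454 in edgeR). The list's median was -0.31, and 13 of the 17 were fitted below 0. In edgeR 4 had an unadjusted p under 0.05, while DESeq2 called 2 and limma voom 4. In the epithelial antimicrobial list 1 of 9 tested genes was called, Defb1, a beta-defensin, higher at 100 ± 36.5 CPM in AMKO and 37.2 ± 19.6 CPM in WT (log2 fold change 1.42, SE 0.34, adjusted p = 0.0254 in edgeR). Its median was -0.21.

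Acinar cells, the known source of Reg proteins, were followed through 2 lists. Of 23 tested acinar enzyme and granule genes 1 was called, Pla2g1b, the pancreatic phospholipase, lower at 392 ± 83.9 CPM in AMKO and 617 ± 157 CPM in WT (adjusted p = 0.0418 in edgeR), and the list's median was 0.14. The enzymes took 27.7% to 38.9% of counts in AMKO libraries and 27.3% to 35.1% in WT libraries. Of 10 acinar transcription factors 2 were called, both higher in AMKO, while 6 of the 10 were fitted below 0 and the list's median was -0.09. The 2 called were Ptf1a, at 181 ± 67.4 CPM in AMKO and 78.4 ± 19.4 CPM in WT (log2 fold change 1.21, SE 0.26, adjusted p = 0.0145 in edgeR), and Bhlha15, which encodes MIST1, at 36.2 ± 6.42 CPM in AMKO and 19.9 ± 3.63 CPM in WT (log2 fold change 0.86, SE 0.14, adjusted p = 0.0032 in edgeR). With the acinar enzyme score as a covariate the log2 fold change of Reg3b was -2.71 (adjusted p = 0.0317 in edgeR).

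Of 16 duct and metaplasia markers tested, 4 were called, all lower in AMKO, beside 3.37% of all tested genes. Their part in the Reg differences was not tested. Krt20, a keratin, was 173 ± 55.9 CPM in AMKO and 783 ± 110 CPM in WT (log2 fold change -2.18, SE 0.19, adjusted p = 2.3e-05 in edgeR). Epcam, Spp1 and Muc1 had log2 fold changes of -0.50, -0.62 and -0.53. Summed over the list, levels were 13290 to 20390 CPM in AMKO libraries and 15679 to 19660 CPM in WT libraries. Mean centred log2 scores of the list were -0.35 to -0.03 in AMKO and 0.17 to 0.25 in WT, without overlap.

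Of 17 neutrophil genes tested, 0 were called by edgeR, DESeq2 or limma voom, with 1 at an unadjusted p under 0.05. Neutrophil scores were lowest in AMKO 3 (-1.29), AMKO 6 (-1.37), WT 3 (-1.23) and WT 6 (-1.18), of which AMKO 3 had the lowest and AMKO 6 the highest AMKO levels of Reg2, Reg3a, Reg3b and Reg3d. Macrophage genes gave 1 call of 17, Mrc1, the mannose receptor, higher at 86.6 ± 17.8 CPM in AMKO and 49.5 ± 14.2 CPM in WT (adjusted p = 0.0211 in edgeR). B, plasma and T cell genes gave 0 calls of 9 by each of the 3 tools and 0 at an unadjusted p under 0.05. With the score of the leukocyte lists as a covariate, the fit for Reg3b gave -2.34 (log2 fold change, adjusted p = 0.0270 in edgeR).

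Islet genes gave 0 calls of 13 by each of the 3 tools and 0 at an unadjusted p under 0.05. Their score ran from -1.66 to 1.54 in AMKO and from -0.96 to 0.55 in WT, summed levels ran from 159 to 2217 CPM in AMKO and from 328 to 936 CPM in WT, and no islet gene of the list was at 0 everywhere. AMKO 6, with the highest Reg3d, had the highest islet score, and AMKO 3, with the lowest Reg3d, the next highest at 0.95.

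Gut epithelium also expresses Reg3 genes. The intestinal markers Alpi, Sis, Cdx1 and Cdx2 had 0 counts in all 12 libraries, as had the genes of pancreas cells named above. Of 5 gut markers with enough counts 1 was called, Anpep, an aminopeptidase, lower at 57.3 ± 6.77 CPM in AMKO and 95.8 ± 20.3 CPM in WT (adjusted p = 0.00585 in edgeR). Only 2 of the 5 were fitted below 0, and the list's median log2 fold change was 0.22. The list summed to 57.7 to 71.4 CPM in AMKO libraries and 73.0 to 132 CPM in WT libraries, most of it from Anpep. Liver markers separated libraries within WT. Their scores were 0.22 to 1.03 in AMKO libraries, 0.23 to 1.03 in WT 4 to 6 and -1.75 to -1.15 in WT 1 to 3, with 0 of 10 called by edgeR or DESeq2, 2 by limma voom and 0 at an unadjusted p under 0.05. Against WT 4 to 6 and WT 1 to 3 the log2 fold changes were -1.98 and -2.11 for Reg3g, -1.77 and -2.60 for Reg3b, -1.56 and -2.34 for Reg3a, -0.91 and -1.40 for Reg2, -0.05 and -0.52 for Reg3d, and -0.30 and -0.20 for Reg1. In edgeR 0 of 6 were called in either, with 2, Reg3b and Reg3g, at an unadjusted p under 0.05 in each. Fibroblast genes gave 2 calls of 13, Pdgfrb and Postn, and endothelial genes 1 of 9, Kdr, all lower in AMKO.

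Some genes outside the family followed the members closely across libraries. Likeness was Pearson's r of log2 CPM over the 12 libraries, among 12581 named genes, and is a description of libraries that share depth and scaling. Ppp2r3a, a phosphatase subunit (r = 0.944), Galnt7, a mucin-type glycosyltransferase (r = 0.928), and Smarcc1, a chromatin remodelling subunit (r = 0.924), were most like Reg3g. Ipo9 (r = 0.922), Zbtb41 (r = 0.917) and Smarcc1 (r = 0.908) were most like Reg3b, and Golga3 (r = 0.922), Ipo9 (r = 0.909) and Xpo7 (r = 0.906) most like Reg3a. For Reg3g, Ppp2r3a was closer than any Reg gene, the nearest of which was Reg3b at 0.940. That order turned round with each gene centred on its genotype's mean, at 0.862 for Ppp2r3a and 0.906 for Reg3b. Reg3a and Reg3b were closer to each other, at 0.965, than to any gene outside the family. Among genes outside the family, Reg3d was nearest to Usp8 (r = 0.899), Trim62 and Tax1bp1, and Reg2 to Cep89 (r = 0.883), Aqr and Trim62. Both were closer to Reg3a, at an r of 0.902 for Reg3d and 0.940 for Reg2. Reg1 had other neighbours, Alg8 (r = 0.909), Lrrc7 (r = 0.902) and Mrpl16 (r = 0.852). Each of these was closer to Reg1 than any Reg gene was, the nearest of which was Reg3g at 0.558. Golga3 (r = 0.932) was nearest to the mean of the 6 members, followed by Ipo9 (r = 0.905), Zbtb41 (r = 0.900), an unnamed locus and Fbxl20. Galnt7 was itself called, at a log2 fold change of -0.55 (with an SE of 0.09 and adjusted p = 0.0038 in edgeR). Zbtb41 was also called, at -0.35 (with an SE of 0.10 and adjusted p = 0.0460 in edgeR).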

How the data were processed

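The table deposited by the authors holds raw gene counts in 12 columns, each matched to a sample by its title. Reads were aligned with HISAT2 2.0.4 to mm10, per the submitters' processing notes. The sources used here name neither counter nor annotation nor strand setting. Per the labels' protocols, RNA was extracted with Trizol. Nothing in the labels ties samples to separate mice, so p-values measure the spread between these samples, which may be technical.

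AMKO was tested against WT with edgeR 4.0.16 (R 4.3.3), quasi-likelihood, TMM scaling and filterByExpr, on the whole table, with Benjamini-Hochberg adjustment over 13743 genes. An SE is the log2 fold change over the root of its F statistic. Log2 CPM used a prior count of 2, and log2 ratios an offset of 0.5 counts. Correlations used 100000 permutations (1e-05 is the smallest p they can give), and 6 libraries exact enumeration (SciPy 1.17.1). Near copies were sought with BLAST 2.17.0 at 95% identity over 300 bases. DESeq2 1.42.0, limma 3.58.1, other scalings and filters, covariates, a replicate block, the WT subsets and single libraries left out were alternatives. The script was tested on simulated data.

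The members and the gene lists were chosen with earlier results of these data known. Genes named are the members, Reg4, Extl3, Axl, Mertk, Stat3, Socs3, Il6, Il22, Il22ra1, up to 4 called genes of each list or otherwise its most abundant tested genes, and the 3 genes most like each member. Libraries of a genotype were not repeats of each other (chi-square over its degrees of freedom 9.93 to 73.33).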

Additional observations from a re-analysis of the deposited data

How the results depend on the processing

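No fold change of a Reg gene changed sign under any setting run. Reg3g lost its call against WT 4 to 6 alone (-1.98) or WT 1 to 3 alone (-2.11), and ran from -2.61 to -1.85 with single libraries left out. Reg3b gained a call with DESeq2 (-2.24), limma voom (-2.19), the acinar enzyme score (-2.71) or the leukocyte score (-2.34) as a covariate, and ran from -2.89 to -1.90 with single libraries left out. Reg3a ran from -3.79 to -1.47, and gained its call without AMKO 6. Reg members called numbered 2 with DESeq2, limma voom or either covariate, 0 with either WT subset (2 at an unadjusted p under 0.05 in edgeR, no other tool run there), and 0 to 3 with single libraries left out, the 0 without AMKO 2.

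Genes called numbered 794, against 456 with total-count scaling, 1302 with DESeq2, 1664 with limma voom, 1463 with the leukocyte score, 167 with WT 4 to 6, 231 with WT 1 to 3, and 411 (without AMKO 3) to 1140 with single libraries left out. Correlated pairs were 10 to 12 of 15 with single libraries left out, those beyond 10 being pairs with Reg1. Ratios called were 0 with either WT subset, where no p can be under 0.0119, and 2 to 7 with single libraries left out, the 7 without AMKO 6.

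The shared replicate numbers did not pair the samples. Deviations of same-numbered libraries correlated at -0.16 to 0.35, and 1 of 6 AMKO libraries correlated best with its own number. With the replicate block 910 genes were called, Reg3g stood at -2.16 (adjusted p = 0.0173) and Reg3b at -2.12 (adjusted p = 0.100).

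Depth limits Il6, at 6 to 48 counts per library, more than the Reg members, of which Reg3g had the lowest count, 87 in AMKO 3. SEs and intervals describe the spread over 6 libraries per genotype. The labels name no batch.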
